A study of Mus musculus with 6 samples.

Results

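The cytosolic chaperonin ring (TRiC, or CCT) and the mitochondrial HSP60 chaperonin were followed at the level of their mRNAs in mouse L929 fibroblasts. The genes were chosen by symbol: the 8 rows of the count table named Tcp1, Cct2, Cct3, Cct4, Cct5, Cct6a, Cct7 and Cct8, which encode the ring subunits, and the 2 rows named Hspd1 and Hspe1, which encode HSP60 and its lid HSP10. They are 10 of the 54532 genes listed, and the rule uses no measured value. L929 is an established line of mouse connective tissue fibroblasts, labelled here with the wild-type genotype. The treated group held 3 libraries from cells that received TNF-α at 10 ng/ml, a death receptor ligand, together with actinomycin D at 1 µg/ml, an inhibitor of transcription, over 12 hours. The control group held 3 libraries whose titles and treatment labels read control, although the protocol text attached to them describes the same treatment. No group received either agent alone, so their effects cannot be told apart. All libraries came from 1 cell line, and nothing in the labels says that they came from separate cultures, so the p-values measure the spread between libraries, which may be technical.

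Chaperonins are double-ring machines that close around an unfolded protein and let it fold inside a chamber at the cost of ATP. In the cytosol, TRiC is built from different but related subunits, each present once per ring, and it folds actin and tubulin, which the prefoldin complex hands over to it. In the mitochondrial matrix, HSP60 forms rings of a single subunit that work with an HSP10 lid to fold imported proteins, and both genes are known targets of heat shock factor and of the mitochondrial unfolded protein response.

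Library totals ran from 16448477 to 17705511 counts in treated libraries and from 16056207 to 18036322 in control libraries. A smaller number of genes had any count in treated libraries, 15705 to 18849, against 19219 to 20116 in control libraries. The TMM factors, which edgeR uses to bring libraries to a common scale, were 0.64 to 0.797 in treated libraries and 1.34 to 1.53 in control libraries, and the CPM values below (counts scaled to a common library size) carry them. Of the genes tested, 34.6% were called higher and 40.2% lower in treated libraries, 74.8% in all, by edgeR's quasi-likelihood test at a Benjamini-Hochberg adjusted p under 0.05, with a median log2 fold change of -0.18. The fibroblast label was checked with 7 markers, of which Col1a1, Col1a2, Col3a1, Sparc and Vim were abundant. The summed fibroblast markers lay at 18439 to 21158 CPM in treated libraries and 5443 to 7079 CPM in control libraries, but Pdgfra was lower, at 4.95 to 6.98 CPM in treated libraries and 16.4 to 20.1 CPM in control libraries, and Thy1 was at 0 in treated libraries and at most 0.158 CPM in control libraries. The 4 macrophage markers summed to 23.5 to 31.0 CPM in treated libraries and 2.17 to 2.77 CPM in control libraries, and Cd68, the only one of the 4 called, was at 21.9 to 30.6 CPM in treated libraries and 1.74 to 1.98 CPM in control libraries. The defining leukocyte markers Ptprc and Adgre1 were at 0 in treated libraries and at most 0.0395 and 0.0409 CPM in control libraries. The 4 epithelial markers had too few counts to be tested and summed to 0.619 to 0.883 CPM in treated libraries and 0.0409 to 0.166 CPM in control libraries, with Epcam at 0. The 3 endothelial markers, also untested, summed to 0 to 0.458 CPM in treated libraries and 0.204 to 0.414 CPM in control libraries, with Kdr at 0. Whether any of these markers has a part in the results below was not tested.

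Promoter sequence was taken from RefSeq (GRCm38.p6) as windows of 300 bases, from 250 bases before to 50 bases after the gene start, and 9 of the 10 genes had one. Of these, 3 are shown because their genes mark the ends of the response described below: Hspe1 and Cct7 were called higher with the largest log2 fold changes of the 10 genes with TMM scaling, and Cct6a was called lower. With the gene length offset described below, Hspe1 was at 0.55 and no longer among the largest, while Cct7 remained the largest. Each is printed 5′ to 3′ on the gene's strand up to the base before the start. In Hspe1, the capitals mark overlapping matches to a heat shock element of 3 alternating units, spelled TTCNNGAANNTTC and searched on both strands. In Cct7, the capitals mark CCAAT read on the other strand (ATTGG), and in Cct6a they mark CCAAT itself.
Hspe1, chr1:55087898-55088147, plus strand: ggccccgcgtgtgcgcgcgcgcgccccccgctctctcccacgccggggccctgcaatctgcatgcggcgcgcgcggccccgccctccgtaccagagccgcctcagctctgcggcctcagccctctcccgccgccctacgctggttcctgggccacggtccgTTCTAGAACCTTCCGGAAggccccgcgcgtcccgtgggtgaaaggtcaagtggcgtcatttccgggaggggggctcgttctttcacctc
Cct7, chr6:85451255-85451504, plus strand: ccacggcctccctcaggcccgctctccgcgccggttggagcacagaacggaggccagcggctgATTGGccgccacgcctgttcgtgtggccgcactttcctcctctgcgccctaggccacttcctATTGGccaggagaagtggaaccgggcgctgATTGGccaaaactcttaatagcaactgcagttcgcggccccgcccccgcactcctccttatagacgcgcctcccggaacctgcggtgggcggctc
Cct6a, chr5:129787106-129787355, plus strand: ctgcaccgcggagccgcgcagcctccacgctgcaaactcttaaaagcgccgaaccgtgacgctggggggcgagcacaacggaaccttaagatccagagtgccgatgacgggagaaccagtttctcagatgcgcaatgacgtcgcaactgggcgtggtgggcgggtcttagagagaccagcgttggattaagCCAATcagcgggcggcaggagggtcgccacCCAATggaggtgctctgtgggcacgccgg

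The heat shock element of Hspe1 began 89 bases before the start on the gene's strand and, on the other strand, 84 bases before it. That stretch also lay in the window of a second RefSeq start of Hspd1, because both genes are transcribed away from a shared promoter. Only 198 of 32851 promoter windows in the RefSeq table held the 13-letter element, 0.603%, and 2 of the 9 genes with a window did, Hspd1 and Hspe1, through the same bases. Its shorter pieces TTCNNGAA and GAANNTTC were in 8.52% and 7.86% of all windows and in 4 and 3 of the 9 genes. CCAAT, the box bound by the factor NF-Y, was in 37.4% of all windows and in 5 of the 9 genes (Tcp1, Cct3, Cct6a, Cct7 and Hspd1), so both a gene called higher, Cct7, and one called lower, Cct6a, carried it. The ETS-type core CCGGAAG was in 8.86% of all windows and in 5 of the 9 genes (Tcp1, Cct2, Cct8, Hspd1 and Hspe1), overlapping the heat shock element in the last pair. The 9 genes had 12 windows, and a gene was counted if any of its windows matched, whereas the percentages are per window. Of the 12 windows, the 13-letter element was in 2, TTCNNGAA in 4, GAANNTTC in 3, and CCAAT and CCGGAAG in 5 each. These matches describe letters in the windows and do not show binding.

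All 10 chaperonin genes passed the filter on low counts, and their CPM ranges did not overlap between the groups for any of them, as was so for 77.9% of all genes tested. With TMM scaling, 5 of the 8 ring subunit genes were called higher in treated libraries, where 34.6% of all genes tested were, and 1 was called lower, where 40.2% were; with library size alone it was 1 higher and 4 lower (17.1% and 59.6% of all genes), and with the ribosomal protein genes held equal all 8 were lower (0 higher; 1.86% and 82.4% of all genes were higher and lower). Both mitochondrial genes were called higher with TMM scaling, only Hspe1 with library size alone, and both were lower with ribosomal protein genes held equal. The median log2 fold change of the ring genes was 0.74, which is 0.92 above the median of all genes. These are bulk libraries of a treated culture, in which fewer cells of a type and less RNA per cell cannot be told apart. Abundant genes as a class were mostly called higher with TMM scaling: of the 731 genes averaging at least 250 CPM, 638 (87.3%) were called higher and 34 (4.65%) lower, with a median log2 fold change of 1.64. All 10 chaperonin genes belong to this class, the least abundant being Cct6a at a mean of 254 CPM. Every one of them had a log2 fold change below the class median. The class was set by the mean over all 6 libraries, so a gene could enter through its treated level alone. Ubl5 did so, at 480 CPM in treated libraries and 55.3 CPM in control libraries. This choice favours genes called higher, so the class share and median are no yardstick for the chaperonin genes.

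**Figure D1:**
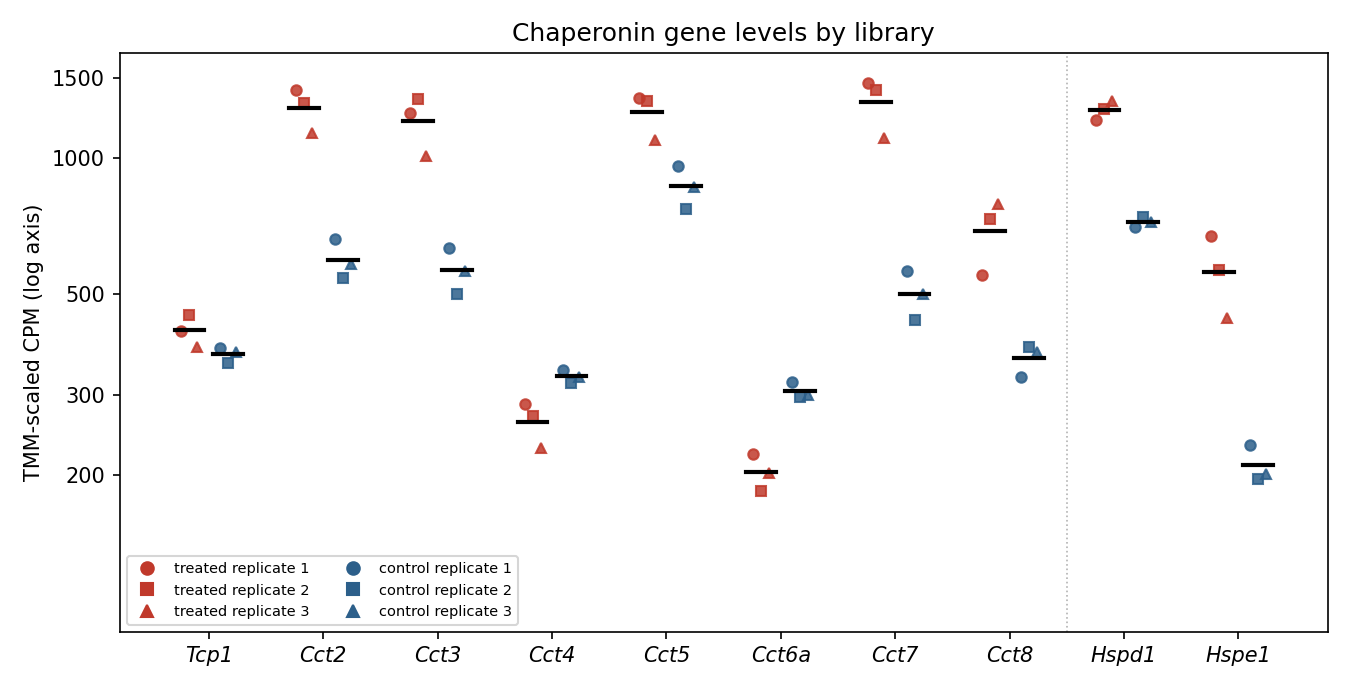
TMM-scaled CPM of the 10 chaperonin genes in each library, with treated points left of control points for each gene, on a log axis, with bars at group means (n = 3 each). The groups do not overlap for any gene, as is so for 77.9% of all genes tested. With this scaling treated libraries lie above control libraries except for Cct4 and Cct6a. With ribosomal protein genes held equal all 10 genes are called lower in treated libraries, as are 82.4% of all genes.

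Among the subunits, Cct7 (the eta subunit; ENSMUSG00000030007, 6:85451514-85468475, plus strand) had the largest log2 fold change. It stood at 1460, 1407 and 1103 CPM in treated libraries, against 561, 439 and 501 CPM in control libraries. The lowest treated library was thus well above the highest control library, and the log2 fold change was 1.40 ± 0.18 (SE; edgeR adjusted p = 3.73e-05). Cct2, the beta subunit (ENSMUSG00000034024, 10:117051001-117063814, minus strand), had 1412, 1316 and 1134 CPM in treated libraries and 662, 542 and 582 CPM in control libraries, a log2 fold change of 1.11 ± 0.17 (edgeR adjusted p = 1.29e-04). The gamma subunit gene Cct3 (ENSMUSG00000001416, 3:88297116-88321767, plus strand) had 1253, 1347 and 1006 CPM in treated libraries, against 633, 499 and 563 CPM in control libraries. Its log2 fold change was 1.09 ± 0.18 (edgeR adjusted p = 2.24e-04), so these 3 genes formed the upper group of the ring. In treated libraries all 3 were lowest in replicate 3.

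Cct8, which encodes the theta subunit (ENSMUSG00000025613, 16:87483326-87495873, minus strand), differed from these in its order among replicates. It had 552, 731 and 788 CPM in treated libraries, lowest in replicate 1, and 329, 383 and 373 CPM in control libraries. The log2 fold change was 0.93 ± 0.18 (edgeR adjusted p = 6.00e-04), and Cct8 was one of the 5 genes called higher with TMM scaling. Cct5, the epsilon subunit gene (ENSMUSG00000022234, 15:31590800-31601804, minus strand), had 1356, 1335 and 1093 CPM in treated libraries and 959, 772 and 861 CPM in control libraries. Its log2 fold change of 0.55 ± 0.17 passed the test (edgeR adjusted p = 0.0139) but was the least firm of the 5. The call was lost without treated replicate 1 (adjusted p = 0.0514), treated replicate 2 (0.0505), control replicate 2 (0.0695) or control replicate 3 (0.0815), with edgeR in each case.

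The other 3 subunits stood apart. Tcp1, the alpha subunit that gave the ring its name (ENSMUSG00000068039, 17:12915701-12925067, plus strand), had 415, 449 and 383 CPM in treated libraries and 381, 353 and 372 CPM in control libraries. The groups were separated only by the gap between 383 CPM and 381 CPM, and the log2 fold change of 0.17 ± 0.15 did not pass the test (edgeR adjusted p = 0.297). Cct4, the delta subunit gene (ENSMUSG00000007739, 11:22990519-23003780, plus strand), had 286, 269 and 229 CPM in treated libraries, against 340, 319 and 329 CPM in control libraries. Every treated library was below every control library, but the log2 fold change of -0.33 ± 0.15 missed the threshold (edgeR adjusted p = 0.0605). It passed when treated replicate 1, 2 or 3 was left out, with edgeR adjusted p = 0.0146, 0.0441 and 0.025. Cct6a, the zeta subunit gene (ENSMUSG00000029447, 5:129786998-129846371, plus strand), was the 1 ring gene called lower. It had 222, 184 and 202 CPM in treated libraries and 320, 297 and 299 CPM in control libraries, a log2 fold change of -0.59 ± 0.14 (edgeR adjusted p = 0.00316), and it was called lower under every alternative run.

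The pair of mitochondrial genes was called higher with TMM scaling. Hspd1, which encodes HSP60 (ENSMUSG00000025980, 1:55077835-55088243, minus strand), had 1211, 1281 and 1334 CPM in treated libraries and 703, 739 and 721 CPM in control libraries. With an SD of 62.0 CPM about a treated mean of 1275 CPM and of 18.2 CPM about a control mean of 721 CPM, it was the steadiest of the 7 genes called higher, and its log2 fold change was 0.82 ± 0.15 (edgeR adjusted p = 5.59e-04). Hspe1, which encodes HSP10 (ENSMUSG00000073676, 1:55088132-55091307, plus strand), had 673, 566 and 443 CPM in treated libraries, against 233, 196 and 201 CPM in control libraries. Its log2 fold change of 1.42 ± 0.18 (edgeR adjusted p = 3.73e-05) was the largest of the 10 genes with TMM scaling and lay at percentile 79.1 among all genes tested, but it was 0.55 with the gene length offset, below those of 6 other members. Cct7 lay at percentile 78.9 and Cct6a, the lowest, at 42.2, so no chaperonin gene was among the most strongly moved genes of the series.

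The sign of the fold change depended on the scale on which the libraries were compared for 8 of the 10 genes. These were all but Cct4 and Cct6a, among TMM, library size and ribosomal protein scaling. The distance from the median of all genes hardly changed, because by construction these scalings shift every gene by nearly the same amount. The gene length offset can change that distance, and with it Hspe1 lay 0.50 and Cct7 2.22 above the median. With library size alone the median of all genes moved by -1.04 on the log2 scale relative to TMM, and with the ribosomal protein genes held equal by -2.39. Cct7 then had log2 fold changes of 0.35 (library size; edgeR adjusted p = 0.0101, called higher) and -1.01 (ribosomal protein genes; called lower). Relative to the median of all genes, Hspe1 and Cct7 lay 1.59 and 1.58 above it with TMM, Cct2 and Cct3 1.29 and 1.27 above, Cct8 1.11, Hspd1 1.00, Cct5 0.72 and Tcp1 0.35 above. Cct4 and Cct6a lay 0.16 and 0.42 below it, at -0.16 and -0.42. With TMM all 10 genes were below the median of genes averaging at least 250 CPM, which was 1.64. That class was chosen by the mean over treated and control libraries, which favours higher calls. An offset for gene length, with which 35.4% of all genes were called higher and 33.2% lower, changed the order more: with it 5 ring genes were called higher and 1 lower, Tcp1 was called higher (log2 fold change 0.76, edgeR adjusted p = 8.06e-04), Cct3 and Cct7 had 1.89 and 2.26, Cct5 (0.35, adjusted p = 0.0901) was not called, and Cct4 was at 0.03 (adjusted p = 0.858).

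**Figure D2:**
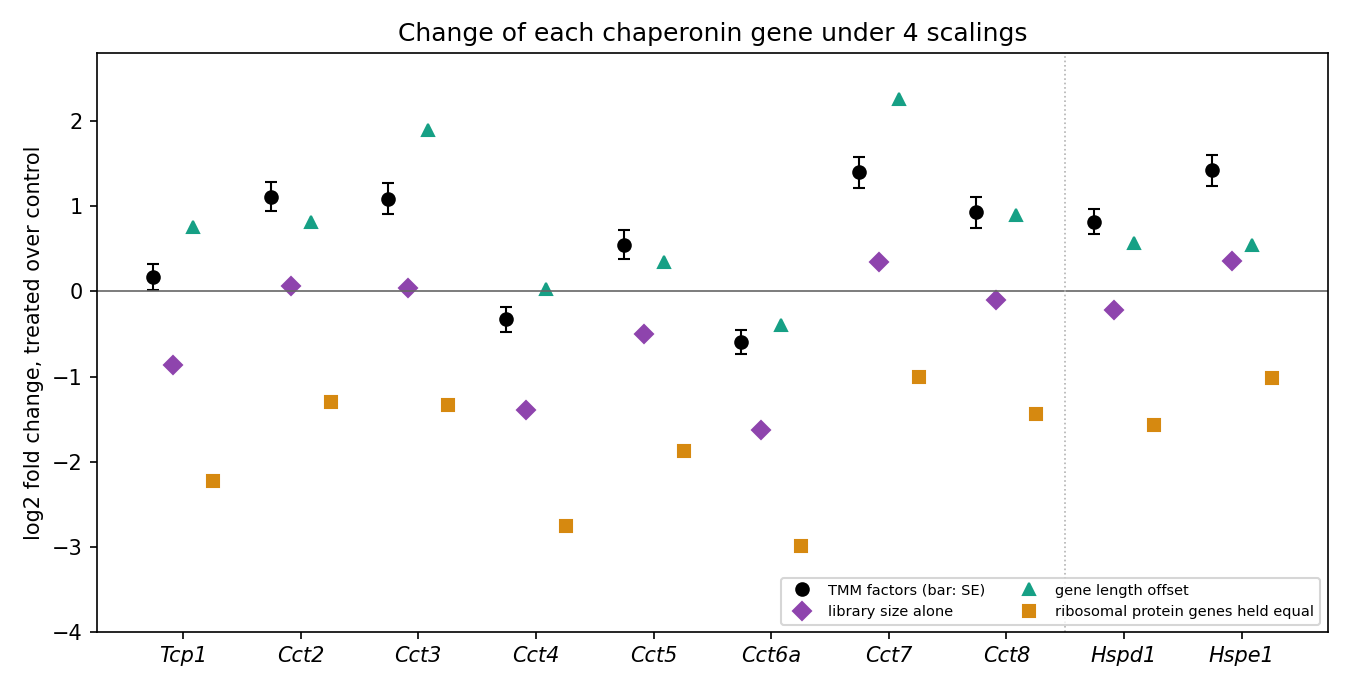
Log2 fold changes, treated over control, of the 10 chaperonin genes under TMM scaling with SE bars (n = 3 libraries each), and under library size alone, ribosomal protein genes held equal and a gene length offset. With TMM 7 genes are called higher and 1 lower, where 34.6% and 40.2% of all genes are. With the ribosomal protein genes held equal all 10 lie below 0, where 82.4% of all genes are called lower. The gene length offset raises Cct7 to 2.26.

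A ratio within a library does not depend on that library's scaling factor, so each gene was also expressed as its log2 ratio to the mean of the 8 ring subunits in the same library. On this measure 8 of the 10 chaperonin genes had groups that did not overlap, where 79.4% of all genes tested did not, each with an exact two-sided permutation p = 0.1, the smallest that 3 against 3 libraries allow. Cct7 was 1.08, 1.02 and 0.85 above the ring mean in treated libraries and 0.21, 0.03 and 0.13 above it in control libraries, a difference of 0.86. Cct2 was 1.03, 0.92 and 0.89 above it in treated libraries and 0.45, 0.33 and 0.35 above it in control libraries (difference 0.57). Cct3, at 0.86, 0.96 and 0.72 in treated libraries and 0.38, 0.21 and 0.30 in control libraries, differed by 0.55. These 3 genes thus took a larger place within the ring's mRNA in every treated library than in any control library. The ratios carry no gene length offset. With that offset the log2 fold change of Cct2 (0.82) was close to those of Tcp1 (0.76) and Cct8 (0.9). Those of Cct3 (1.89) and Cct7 (2.26) stayed above them.

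Because the 8 subunits are set against their own mean, a larger place for some requires a smaller one for others. Here 3 subunits took a smaller place. Cct6a was at -1.63, -1.92 and -1.59 relative to the ring mean in treated libraries, against -0.60, -0.53 and -0.62 in control libraries, a difference of -1.13. Cct4 was at -1.27, -1.37 and -1.42 in treated libraries and -0.51, -0.43 and -0.48 in control libraries, a difference of -0.88. Tcp1 was at -0.73, -0.63 and -0.67 in treated libraries and -0.35, -0.29 and -0.30 in control libraries, a difference of -0.37. Cct5 tracked the ring mean, at 0.98, 0.94 and 0.84 above it in treated libraries and 0.98, 0.84 and 0.91 in control libraries, with overlapping groups and a difference of 0.01 (exact permutation p = 1.0). Cct8 also overlapped, at -0.32, 0.07 and 0.37 in treated libraries and -0.56, -0.17 and -0.29 in control libraries (difference 0.38, exact permutation p = 0.3). Against the same ring mean, Hspe1 differed by 0.86 and Hspd1 by 0.29 between treated and control libraries. None of these ratios carries the gene length offset. With that offset Cct5 had a log2 fold change of 0.35, below Tcp1 (0.76) and Cct2 (0.82). Whether Cct5 tracked the ring mean thus depends on that setting.

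**Figure D3:**
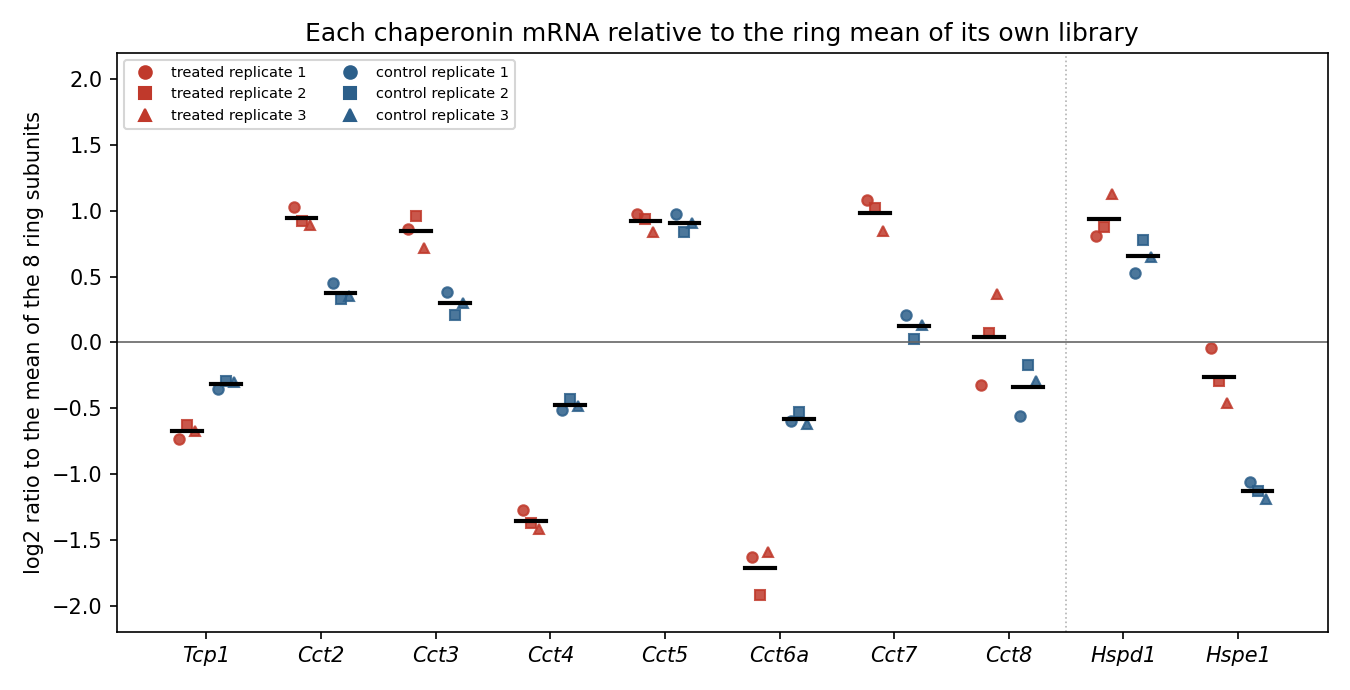
Log2 ratio of each chaperonin gene to the mean of the 8 ring subunits in the same library, treated points left of control points, 3 libraries each, with lines at the group means. Cct2, Cct3 and Cct7 lie higher and Tcp1, Cct4 and Cct6a lower in every treated library than in any control library. Cct5 (difference 0.01) and Cct8 (difference 0.38) overlap. On this measure the groups do not overlap for 79.4% of all genes tested. The ratios carry no gene length offset.

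Pair by pair, 23 of the 28 subunit ratios had groups that did not overlap, as was so for 74.2% of all pairs of genes tested. The pair with the largest gap, chosen after its values were seen, was Cct7 over Cct6a. There were 6.57, 7.66 and 5.46 Cct7 counts per Cct6a count in treated libraries, against 1.75, 1.48 and 1.68 in control libraries, a log2 difference of 1.99, or 3.99-fold. Cct7 over Cct4, chosen likewise, was 5.10, 5.23 and 4.82 in treated libraries and 1.65, 1.37 and 1.52 in control libraries, a log2 difference of 1.74, or 3.34-fold. No treated library came near a control library in either ratio.

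Because each ring holds every subunit once, the levels of the subunits were also compared per length of transcript, as CPM per kb with TMM factors. Differences between the groups in these levels thus depend on the scaling, while the order and spread of subunits within a library do not. Lengths were those of the principal annotated transcript in GENCODE or, for Cct6a, whose row has the biotype processed transcript, of the longest transcript not marked as a retained intron, since the deposited gene lengths join all annotated exons, among them retained introns (7 of the 12 Tcp1 transcripts and 5 of the 10 Cct3 transcripts). Cct5 had the highest level per kb and Cct6a the lowest in every library. Cct5 averaged 681 ± 78.9 CPM per kb in treated libraries and 466 ± 50.3 CPM per kb in control libraries (SD, n = 3 each). Cct6a averaged 82.6 ± 7.84 CPM per kb in treated libraries and 124 ± 5.25 CPM per kb in control libraries. The highest subunit therefore exceeded the lowest by 8.08, 9.63 and 7.16 times in treated libraries and by 3.97, 3.44 and 3.81 times in control libraries.

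Between these ends, Cct2 averaged 657 ± 72.1 CPM per kb, Cct3 608 ± 89.2 and Cct7 542 ± 78.8 in treated libraries (SD, n = 3 each). In that order from Cct5 down, each differed from its neighbour by less than their SD, but Cct7 was below Cct5 and Cct2 by more than it. In control libraries Cct2 averaged 304 ± 31.3 CPM per kb, Cct3 286 ± 33.8 and Cct7 205 ± 25.0, with Cct7 below the other two by more than their SD. Cct8 stood in the middle at 288 ± 51.5 CPM per kb in treated libraries and 151 ± 12.1 in control libraries. Tcp1 averaged 170 ± 13.5 CPM per kb in treated libraries and 151 ± 5.86 in control libraries, so that Cct8 and Tcp1 had like levels in control libraries and differed in treated ones. Cct4 averaged 105 ± 11.9 CPM per kb in treated libraries and 133 ± 4.27 in control libraries, next above Cct6a in both groups. The SD over the 8 subunits of log2 CPM per kb, a measure of how uneven the ring's mRNAs were, was 1.26, 1.3 and 1.19 in treated libraries and 0.75, 0.62 and 0.68 in control libraries. With the deposited lengths it was 1.22, 1.26 and 1.20 in treated libraries and 0.84, 0.79 and 0.80 in control libraries, and with those Cct2 in place of Cct5 was highest in treated libraries. The lowest subunit was then Cct6a in treated replicates 1 and 2, Cct4 in treated replicate 3, Cct7 in control replicate 2 and Tcp1 in the other control libraries.

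Summed over the ring, the 8 genes took 0.445%, 0.464% and 0.473% of all counts in treated libraries and 0.560%, 0.549% and 0.563% in control libraries, a ratio of group means of 0.826. Of the counts in protein-coding genes other than mitochondrial and ribosomal protein genes, the ring took 0.631%, 0.647% and 0.631% in treated libraries and 0.639%, 0.621% and 0.639% in control libraries. The ring's total share was thus lower in every treated library with the first denominator and overlapped between the groups with the second. Hspd1 and Hspe1 together took 0.120%, 0.122% and 0.142% of all counts in treated libraries and 0.125%, 0.142% and 0.134% in control libraries, which overlap. With the second denominator their share was 0.171%, 0.170% and 0.189% in treated libraries and 0.143%, 0.161% and 0.152% in control libraries, which do not.

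Within the mitochondrial pair, subunit and lid did not keep their ratio in every library. There were 0.556, 0.442 and 0.332 Hspe1 counts per Hspd1 count in treated libraries, against 0.332, 0.265 and 0.279 in control libraries. Treated replicate 3 sat at the level of control replicate 1, so the groups met, and the log2 difference of 0.58 had an exact permutation p = 0.2. Without treated replicate 3 the log2 difference was 0.77, and without treated replicate 1 it was 0.40. The ratio carries no gene length offset, with which the log2 fold changes of Hspe1 and Hspd1 were alike, at 0.55 and 0.57. The 2 gene bodies overlap by 112 bases at their starts on opposite strands, and the sources used here do not say whether counting used strand. Per kb of main transcript and with TMM factors, HSP10 mRNA averaged 725 ± 149 CPM in treated libraries and 271 ± 26.2 CPM in control libraries. HSP60 mRNA averaged 526 ± 25.6 CPM in treated libraries and 297 ± 7.52 CPM in control libraries. The order of Hspe1 and Hspd1 in mean level per kb thus differed between the groups. In control replicate 1, however, Hspe1 was above Hspd1, at 302 against 290 CPM per kb of main transcript. With the deposited lengths Hspe1 was below Hspd1 in both groups, at 381 against 483 CPM per kb in treated libraries and 143 against 273 CPM per kb in control libraries.

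Reads of near-identical copies could touch the Hspd1 values. The processed pseudogene Hspd1-ps3 (11:41498737-41500458, plus strand) had 275, 242 and 808 counts in treated libraries and 416, 885 and 719 counts in control libraries. That equals 2.01%, 1.67% and 4.62% of the Hspd1 counts in treated libraries and 2.45%, 4.89% and 3.94% in control libraries, with no test passed (log2 fold change 0.39 ± 0.40, edgeR adjusted p = 0.385, and -0.32 without treated replicate 3). How reads shared between Hspd1 and its pseudogene were assigned is not stated, so its row is uncertain. The testis-type paralogues were close to silent: Cct6b had 1, 1 and 4 counts in treated libraries and 1, 4 and 5 in control libraries, and Cct8l1 had 0, 0 and 4 counts in treated libraries and 0 in each control library.

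Most chaperonin genes start close to a gene on the other strand, and these head-to-head neighbours, taken as all genes starting within 1000 bases, were called with their partner in some pairs and not in others. Cct6a was called lower, yet Psph, the phosphoserine phosphatase gene that starts 451 bases from it, was called higher: it averaged 376 ± 72.4 CPM in treated libraries and 141 ± 23.4 CPM in control libraries (SD, n = 3 each; log2 fold change 1.42 ± 0.19, edgeR adjusted p = 4.71e-05). Cct7 was called higher, while Pradc1, 456 bases away, averaged 7.05 ± 2.25 CPM in treated libraries and 9.04 ± 0.577 CPM in control libraries (log2 fold change -0.36 ± 0.26, edgeR adjusted p = 0.237). Pradc1 was called lower without treated replicate 2 (-0.72, edgeR adjusted p = 0.0182), with the gene length offset (-0.91) and with library size alone (-1.41). Tcp1 was not called, but Mrpl18, a mitochondrial ribosomal protein gene 644 bases away, averaged 84.6 ± 21.4 CPM in treated libraries and 40.0 ± 3.68 CPM in control libraries (log2 fold change 1.08 ± 0.20, edgeR adjusted p = 4.85e-04). Mrpl18 was not called with library size alone (0.02) or with the gene length offset (0.16, adjusted p = 0.495), and with that offset Tcp1 was the one called. Mrpl18, Psph and Tsacc were below 0 with ribosomal protein genes held equal, at -1.37, -1.0 and -0.48.

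For the other starts, Tsacc, 117 bases from Cct3, was called higher with Cct3 but at 3.89 ± 1.45 CPM in treated libraries and 0.961 ± 0.164 CPM in control libraries (log2 fold change 2.00 ± 0.40, edgeR adjusted p = 8.67e-04, and 0.88 with adjusted p = 0.0692 with the gene length offset). Fam173b, 48 bases from Cct5, averaged 19.8 ± 1.65 CPM in treated libraries and 24.1 ± 0.639 CPM in control libraries and was not called (log2 fold change -0.28 ± 0.17, edgeR adjusted p = 0.162, and 0.35 with the gene length offset). B130034C11Rik, 126 bases from Cct8, had at most 8 counts in any library and was not tested. Several of these rows overlap their chaperonin gene on the opposite strand: Tcp1 and Mrpl18 by 645 bases, Cct7 and Pradc1 by 457, Cct6a and Psph by 452, and Cct8 and Usp16 by 192 at their other ends. Since the strand setting is unknown, reads in these stretches cannot be placed with either gene.

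**Figure D4:**
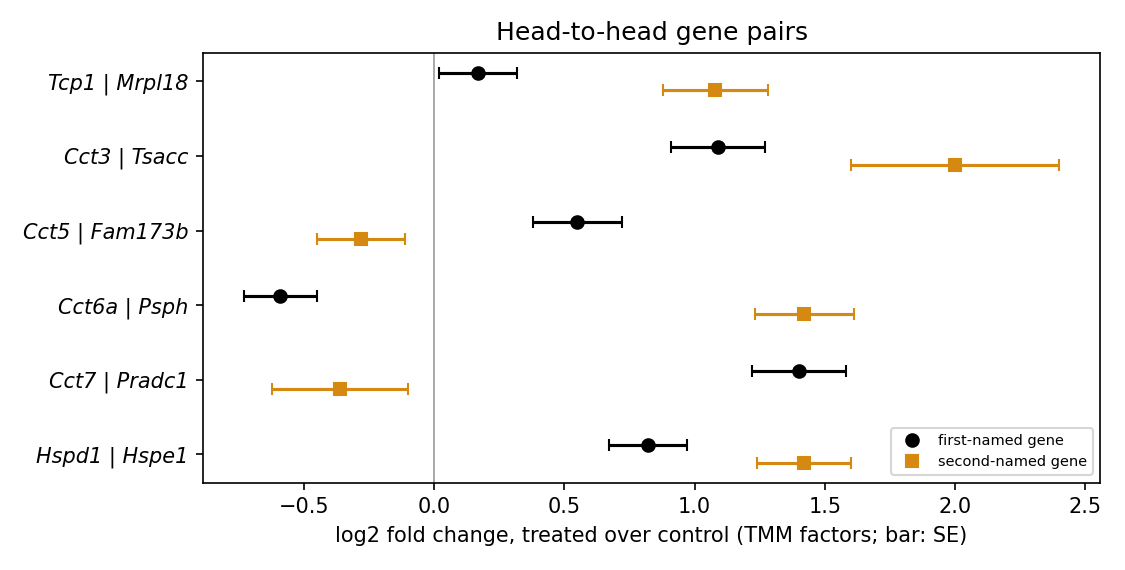
Log2 fold change (treated over control, TMM, with SE, n = 3 libraries each) of the chaperonin genes whose head-to-head neighbour was tested, and of that neighbour. These are Tcp1, Cct3, Cct5, Cct6a, Cct7 and the pair Hspd1 and Hspe1. Cct6a (-0.59) and Psph (1.42) lie on opposite sides of 0, as do Cct7 (1.40) and Pradc1 (-0.36); with ribosomal protein genes held equal Psph is at -1.0 and Cct7 at -1.01.

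Partners of the ring were described from 8 lists of 93 genes in all. Of the 89 tested, 39 were called higher and 32 lower with TMM scaling (34.6% and 40.2% of all genes), 20 and 52 with library size alone (17.1% and 59.6%), and 1 and 77 where ribosomal protein genes were held equal (1.86% and 82.4%). The counts of each list below stand against these shares over all genes. Prefoldin and its relatives, which pass unfolded actin and tubulin to the ring, stood highest with TMM scaling, with a median log2 fold change of 1.67. Of its 9 genes, 8 were then called higher and 1 lower. With the gene length offset 6 were called higher and 1 lower, and with library size alone 5 and 1. With ribosomal protein genes held equal 5 were called lower and none higher. The prefoldin subunit gene Pfdn5 averaged 742 ± 218 CPM in treated libraries and 115 ± 15.3 CPM in control libraries (log2 fold change 2.69 ± 0.24, edgeR adjusted p = 2.66e-06). Pfdn1, another subunit, averaged 174 ± 42.7 CPM in treated libraries and 39.3 ± 4.82 CPM in control libraries (2.15 ± 0.20 on the log2 scale). The prefoldin-like Pdrg1 averaged 314 ± 62.5 CPM in treated libraries and 71.9 ± 7.27 CPM in control libraries (2.13 ± 0.18). With the gene length offset Pfdn5, Pfdn1 and Pdrg1 were at 1.76, 0.98 and 1.77. Uri1, the unconventional prefoldin scaffold, was the 1 called lower, at 12.4 ± 5.12 CPM in treated libraries and 47.9 ± 1.68 CPM in control libraries (-1.94 ± 0.26, edgeR adjusted p = 5.15e-05).

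Of 5 cofactors known to bind the ring, 2 were called higher and 3 lower with TMM scaling, and all 5 were lower with ribosomal protein genes held equal. Pdcl3, a phosducin-like cochaperone, averaged 60.9 ± 9.46 CPM in treated libraries and 25.2 ± 0.836 CPM in control libraries (log2 fold change 1.27 ± 0.17, edgeR adjusted p = 4.62e-05), and Pdcd5, which binds the ring to hold back tubulin folding, averaged 61.0 ± 19.5 CPM in treated libraries and 23.7 ± 0.874 CPM in control libraries (1.36 ± 0.22). Bag3, a cochaperone of HSP70, averaged 15.8 ± 1.09 CPM in treated libraries and 58.9 ± 10.3 CPM in control libraries (-1.90 ± 0.19, edgeR adjusted p = 4.89e-06). Pdcl, which helps the ring assemble G protein beta subunits, was at -1.82 ± 0.26. Txndc9, a phosducin-like inhibitor of ring activity, was at -0.74 ± 0.17 on the log2 scale and at 0.32 with the gene length offset.

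The Bardet-Biedl genes Bbs10, Bbs12 and Mkks, whose products resemble chaperonin subunits and act in assembly of the BBSome, were all 3 called lower with TMM, library size, ribosomal protein and gene length scaling. Under the stricter filter and in the limma fits on FPKM, Bbs12 alone passed the filter on low values, and it was called lower. Bbs12 had 4, 3 and 10 counts in treated libraries and 266, 382 and 361 counts in control libraries (log2 fold change -4.83 ± 0.38, edgeR adjusted p = 1.27e-06, and -5.48 without treated replicate 3). Bbs10 had 1, 8 and 0 counts in treated libraries and 44, 69 and 47 in control libraries (-3.05 ± 0.78, edgeR adjusted p = 0.00451, and -5.59 without treated replicate 2). Mkks had 0, 8 and 12 counts in treated libraries and 71, 70 and 79 in control libraries (-2.42 ± 0.64, edgeR adjusted p = 0.00532, and -3.09 without treated replicate 3). The chaperonin-like genes thus had the lowest list median, -3.05, and fold changes that rest on a few treated counts.

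Genes of the ring's main substrates were mixed. Of 21 actin and tubulin genes tested, 9 were called higher and 3 lower with TMM scaling, and 18 were lower with ribosomal protein genes held equal. Actb, the cytoplasmic beta-actin gene and the most abundant of them, averaged 4583 ± 1137 CPM in treated libraries and 3482 ± 549 CPM in control libraries and was not called (log2 fold change 0.40 ± 0.22, edgeR adjusted p = 0.129), although it was without treated replicate 3 (0.50, adjusted p = 0.0279). Actg1, the gamma-actin gene, averaged 985 ± 192 CPM in treated libraries and 545 ± 106 CPM in control libraries (0.85 ± 0.21, edgeR adjusted p = 0.00295). Of the 4 alpha-tubulin genes tested, 3 were called higher with TMM scaling and were negative with ribosomal protein genes held equal. Tuba1b was at 1.17 ± 0.23 (0.54 and not called with the gene length offset, 0.11 and not called with library size alone), Tuba1a at 1.48 ± 0.18 and Tuba1c at 0.61 ± 0.23. Tuba1c lost its call without treated replicate 1 or 2, without control replicate 2 or 3, and with the gene length offset (0.18). Tuba4a, named after its values were seen, was not called, at 176 ± 29.4 CPM in treated libraries and 197 ± 36.7 CPM in control libraries (-0.16 ± 0.18, edgeR adjusted p = 0.433). Beta-tubulin genes differed among themselves. Tubb5 averaged 1304 ± 215 CPM in treated libraries and 1426 ± 247 CPM in control libraries (-0.13 ± 0.20, edgeR adjusted p = 0.57), and Tubb4b averaged 292 ± 48.5 CPM in treated libraries and 506 ± 69.2 CPM in control libraries (-0.79 ± 0.18, edgeR adjusted p = 0.00199). Tubb6 was called higher at 0.57 ± 0.17 with TMM, lost its call without control replicate 2 or 3, and was at -0.12 with the gene length offset. The largest rises in this list were those of Actg2 (2.19 ± 0.37), Actr1b (1.50 ± 0.16) and Tuba1a, and the largest falls those of Tube1 (-1.32 ± 0.26, or -0.34 and not called with the gene length offset), Actr3 (-0.97 ± 0.15), an Arp2/3 subunit, and Tubb4b; Actg2 and Actr1b were at -0.20 and -0.89 with ribosomal protein genes held equal.

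Tubulin leaves the ring for a second set of folding cofactors, of which 4 of 7 were called higher and 2 lower with TMM scaling, and 5 lower and none higher with ribosomal protein genes held equal. Tbca, the cofactor that takes up beta-tubulin, averaged 489 ± 100 CPM in treated libraries and 90.4 ± 2.21 CPM in control libraries (log2 fold change 2.44 ± 0.18, edgeR adjusted p = 9.31e-07). It was at 1.01 with the gene length offset. Tbcb, its counterpart for alpha-tubulin, was at 1.51 ± 0.20, and the small GTPase gene Arl2 at 2.02 ± 0.23. Tbcc, the cofactor that triggers release of the finished dimer, averaged 5.86 ± 0.871 CPM in treated libraries and 12.5 ± 1.28 CPM in control libraries (-1.10 ± 0.23, edgeR adjusted p = 0.00123), and Tbcel was at -1.48 ± 0.41, or -0.47 and not called with the gene length offset.

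Of 18 genes for other proteins folded by the ring, 11 were called lower and 4 higher, against 40.2% and 34.6% of all genes, with a median log2 fold change of -1.27. It was 8 lower and 4 higher with the gene length offset, and 17 lower with ribosomal protein genes held equal. Gnb2, a G protein beta subunit of the WD-repeat family, went the other way at 1082 ± 247 CPM in treated libraries and 192 ± 39.2 CPM in control libraries (2.50 ± 0.23, edgeR adjusted p = 2.84e-06). Hdac3, a histone deacetylase, was at 1.42 ± 0.18 and Strap, a WD-repeat protein, at 0.97 ± 0.14, and these were at -1.01 and -1.44 with ribosomal protein genes held equal. Plk1, the mitotic kinase, and Ppp2r2a, a regulatory subunit of phosphatase PP2A, had the largest falls, at -5.72 ± 0.28 and -5.69 ± 0.34. Plk1 had 22, 11 and 25 counts in treated libraries and 2420, 1732 and 2159 in control libraries. Ppp2r2a had 2, 5 and 7 counts in treated libraries and 545, 487 and 477 in control libraries. The sizes of both falls thus rest on few treated counts. Wrap53, a telomerase-associated protein, averaged 2.86 ± 0.452 CPM in treated libraries and 18.1 ± 3.40 CPM in control libraries (-2.66 ± 0.26, edgeR adjusted p = 4.37e-06).

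**Figure D5:**
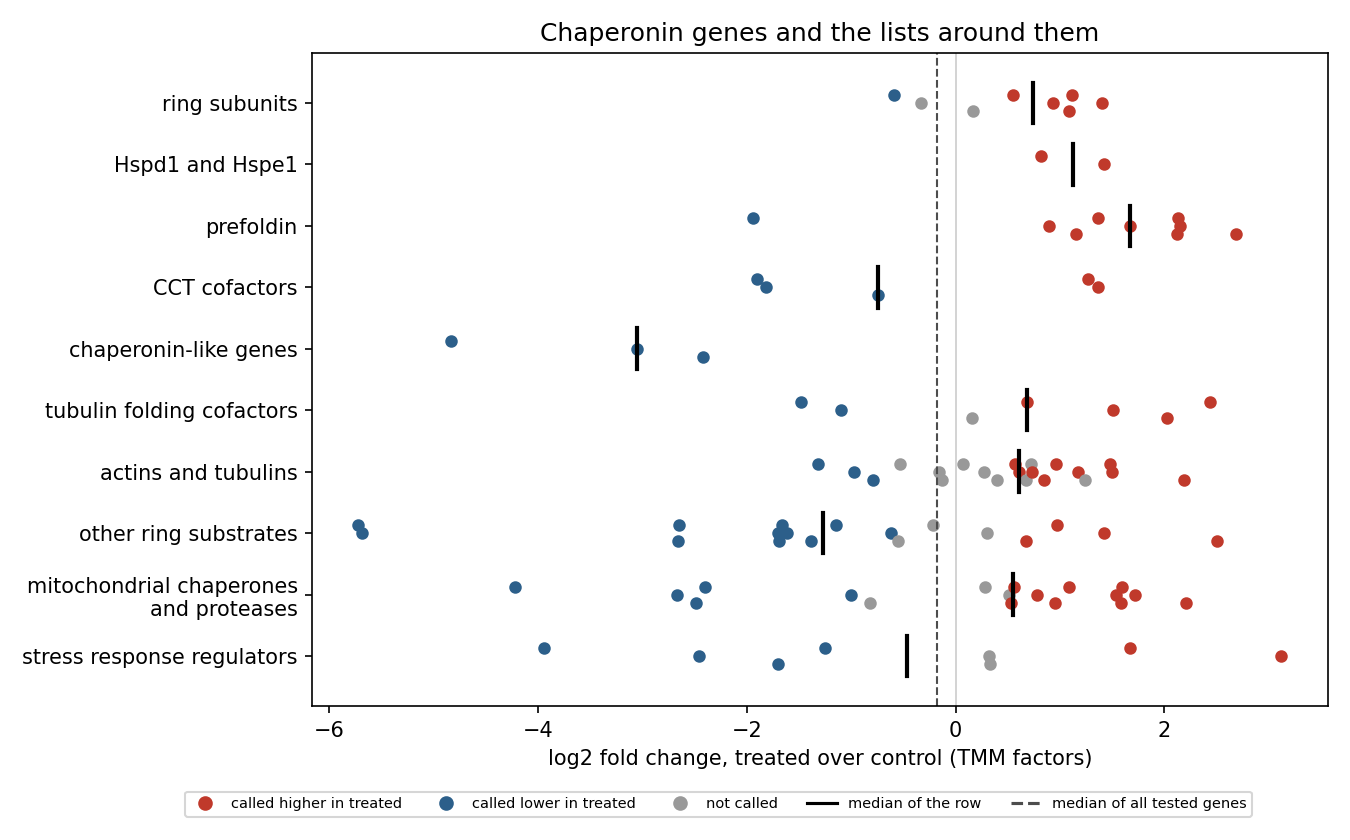
Log2 fold change (treated over control, TMM) of each tested gene in the ring, the mitochondrial pair and the 8 partner lists, 1 point per gene, with the list median as a bar and the median of all genes (-0.18) as a line. Prefoldin genes lie highest (median 1.67) and chaperonin-like genes lowest (median -3.05). With ribosomal protein genes held equal 77 of the 89 listed genes are called lower, as are 82.4% of all genes.

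In mitochondria, HSP60 works beside other chaperones and proteases, of which 10 of 18 were called higher and 5 lower with TMM scaling, against 34.6% and 40.2% of all genes, and 17 were lower with ribosomal protein genes held equal, where 82.4% of all genes were. Spg7, a subunit of an inner membrane protease, averaged 151 ± 17.2 CPM in treated libraries and 32.8 ± 4.96 CPM in control libraries (log2 fold change 2.21 ± 0.17, edgeR adjusted p = 1.20e-06). Trap1, the mitochondrial HSP90, averaged 214 ± 17.7 CPM in treated libraries and 71.0 ± 9.20 CPM in control libraries (1.59 ± 0.16), and Hscb, a cochaperone of iron-sulphur cluster assembly, was at 1.72 ± 0.28, or 0.39 and not called with the gene length offset. Hspa9 and Lonp1, named after their values were seen because they encode the main matrix HSP70 and the main matrix protease, were at 0.78 ± 0.15 and 1.09 ± 0.17 (edgeR adjusted p = 7.98e-04 and 1.69e-04). Hspa9 was close to Hspd1 in level as well, at 1358 ± 47.3 CPM in treated libraries and 791 ± 12.1 CPM in control libraries. The 5 genes called lower were Clpx, Dnaja3, Grpel2, Afg3l2 and Yme1l1, the last pair named after their values were seen. Afg3l2 averaged 13.3 ± 3.14 CPM in treated libraries and 70.4 ± 7.13 CPM in control libraries (-2.4 ± 0.21, edgeR adjusted p = 2.16e-06). Yme1l1 averaged 27.7 ± 4.74 CPM in treated libraries and 55.3 ± 18.7 CPM in control libraries (edgeR adjusted p = 0.00443). Clpx, the unfoldase of the ClpXP protease, averaged 1.51 ± 0.937 CPM in treated libraries and 28.9 ± 2.94 CPM in control libraries (-4.22 ± 0.35, edgeR adjusted p = 1.92e-06, and -4.93 without treated replicate 3). Dnaja3 and Grpel2, a J-protein and a nucleotide exchange factor of mitochondrial HSP70, were at -2.67 ± 0.20 and -2.49 ± 0.27.

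Regulators of the stress responses that can drive chaperonin genes were listed too: 2 of 8 were called higher and 4 lower with TMM scaling, against 34.6% and 40.2% of all genes, and 1 higher and 7 lower with ribosomal protein genes held equal. Without treated replicate 3, 4 were called higher. Ubl5, a ubiquitin-like protein tied in worms to the mitochondrial unfolded protein response, averaged 480 ± 113 CPM in treated libraries and 55.3 ± 5.76 CPM in control libraries (log2 fold change 3.12 ± 0.21, edgeR adjusted p = 6.17e-07). Atf5, a transcription factor of that response in mammals, averaged 756 ± 156 CPM in treated libraries and 237 ± 52.0 CPM in control libraries (1.67 ± 0.21), or -0.71 with ribosomal protein genes held equal. Hsf2, a heat shock factor, averaged 0.900 ± 0.514 CPM in treated libraries and 14.1 ± 1.83 CPM in control libraries (-3.94 ± 0.38, edgeR adjusted p = 4.35e-06). Hsf1, the main heat shock factor, named after its values were seen, averaged 84.8 ± 9.44 CPM in treated libraries and 67.6 ± 9.89 CPM in control libraries (0.33 ± 0.17, edgeR adjusted p = 0.0938). Cebpb, a factor of the C/EBP family, was called lower at -1.70 ± 0.20. Atf4, the most abundant of the 8 and also named after its values were seen, was called lower too. It averaged 323 ± 16.1 CPM in treated libraries and 768 ± 93.7 CPM in control libraries (-1.25 ± 0.16, edgeR adjusted p = 3.40e-05).

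The genes whose pattern over the 6 libraries was most like that of the ring were sought among 3235 tested protein-coding genes with a mean of at least 50 CPM, by the Euclidean distance between log2 CPM centred on each gene's mean and the mean centred profile of the 8 ring genes. The nearest were Pmm2 (distance 0.111), Blmh (0.124), Mrps17 (0.132), Psat1 (0.137) and Ube2q1 (0.139). Psat1, for instance, averaged 884 ± 40.1 CPM in treated libraries and 583 ± 54.5 CPM in control libraries. The distances of the ring genes from their own mean profile were 0.140 for Cct5, 0.456 for Tcp1, 0.702 for Cct3, 0.717 for Cct2, 0.735 for Cct8, 1.08 for Cct4 and Cct7 and 1.41 for Cct6a. Among the 8 subunits, Cct5 was thus the nearest to the average pattern. The 5 genes named above were picked as the smallest of 3235 distances, so they are no yardstick for the subunits. The share of all candidates within the subunits' distances was not computed.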

How the data were processed

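Per the file headers, the authors deposited whole-number counts per Ensembl gene, with coordinates, biotype and gene length in bases (an other kind of value), and a second table of FPKM values. The builds (GRCm38, mm10) and tools (HISAT2 2.1.0, RSEM 1.3.1, DESeq2 1.24.0) are those listed, with no role, per the submitters' processing notes. The deposited FPKM values equal count over gene length times 1 constant per library. That constant, relative to the library total, was 1.22 to 1.65 in treated and 0.635 to 0.719 in control libraries, so they carry a further size factor.

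Counts were scaled by TMM, kept by filterByExpr (13290 of 24708 genes with a count) and compared between treated and control libraries by edgeR's robust quasi-likelihood test (edgeR 4.0.16, R 4.3.3). P-values were adjusted by Benjamini-Hochberg over all genes tested, at a threshold of 0.05. A SE is the log2 fold change over the root of the F statistic. Log2 CPM used a prior count of 2. Shares and count ratios used the counts of each library. Log2 ratios used log2 CPM, in which the scaling factor cancels apart from the prior count. Levels per kb used CPM with TMM factors. Exact two-sided permutation tests were used for single values. Alternatives were other scaling factors, a gene length offset by lowess, other filters, DESeq2 1.42.0, limma 3.58.1 (voom, and log2 FPKM with a pseudocount of 1 or 0.1), a replicate block and leaving out each library. Coordinates are those of the deposited table (GRCm38). Main transcript lengths came from GENCODE, promoters and motif counts from RefSeq.

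Members and lists were chosen with earlier results of these data known. The genes named are all members, all head-to-head neighbours, related rows of at least 1 CPM, up to 3 of the largest called rises and falls per list with a mean of at least 1 CPM, the 8 most abundant actin and tubulin genes, and the 5 genes most like the ring. Exceptions are marked, and a gene that the rule names is not reported here.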

Additional observations from a re-analysis of the deposited data

How the results depend on the processing

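The alternatives were run for 96 results, giving 1491 values, of which 1352 kept the direction and the side of the threshold, or stayed within the spread or 1.5 times a count, and 49 reversed. The scaling decided most of the changes. With library size alone, 1 ring gene was called higher and 4 lower, and 20 listed genes higher and 52 lower. Log2 fold changes were then -0.87 for Tcp1, 0.06 for Cct2, 0.04 for Cct3, -1.39 for Cct4, -0.50 for Cct5, -0.10 for Cct8 and -0.22 for Hspd1, and among other genes -0.08 for Strap, -0.65 for Actb, -0.19 for Actg1, -0.47 for Tubb6, -0.45 for Tuba1c and -0.60 for Hspd1-ps3. With ribosomal protein genes held equal, 0 ring genes were called higher and 8 lower, and 1 listed gene higher and 77 lower. Log2 fold changes were -2.23 for Tcp1, -1.30 for Cct2, -1.33 for Cct3, -2.76 for Cct4, -1.87 for Cct5, -1.01 for Cct7, -1.44 for Cct8, -1.57 for Hspd1 and -1.02 for Hspe1. Other genes that changed sign there were Pfdn1 (-0.29), Pdrg1 (-0.30), Pdcd5 (-1.10), Pdcl3 (-1.15), Tbca (-0.00), Arl2 (-0.42), Tbcb (-0.92), Actg2 (-0.20), Actr1b (-0.89), Tuba1a (-0.94), Hdac3 (-1.01), Strap (-1.44), Spg7 (-0.19), Hscb (-0.69), Trap1 (-0.81), Atf5 (-0.71), Actb (-2.02), Tuba1b (-1.26), Actg1 (-1.55), Tubb6 (-1.83), Tuba1c (-1.82), Mrpl18 (-1.37), Tsacc (-0.48), Psph (-1.0) and Hspd1-ps3 (-1.91). By construction these 2 scalings shift every gene by nearly the same amount. With the gene length offset, the values were 0.76 for Tcp1, 0.03 for Cct4, 0.35 for Cct5, 0.32 for Txndc9, -0.12 for Tubb6, 0.35 for Fam173b and -0.32 for Hspd1-ps3, and calls were also lost for Mrpl18 (0.16), Tsacc (0.88), Hscb (0.39), Tube1 (-0.34), Tbcel (-0.47), Tuba1b (0.54) and Tuba1c (0.18). The cause was not tested.

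Under the other 8 settings, 77 of 80 member values kept their call. The exceptions were Cct4, called lower at -0.49 with no filter and at -0.34 with limma-voom, which made 2 ring genes lower in each, and Cct5, not called at 0.39 with no filter. Leaving out 1 library gave 1 to 2 ring genes called lower, Cct4 at -0.49 to -0.29, Cct5 at 0.41 to 0.60 and Hspd1-ps3 at -0.32 to 0.62. The spread of subunit levels differed by 0.57 with main transcript lengths, added after seeing the data, and by 0.41 with deposited lengths. With the narrower denominator, the share of counts differed by 0.00321 percentage points for the ring and by 0.0245 for Hspd1 and Hspe1.

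Libraries of the 2 groups share replicate numbers, and the labels do not say whether the numbers pair them. The deviations of same-numbered libraries from their group means had correlations of 0.22, -0.137 and 0.029. With only 3 libraries per group these deviations are tied to each other, so the correlations cannot decide it. A fit with a replicate block called 4450 genes higher and 5411 lower, and 5 ring genes higher and 1 lower, with Cct5 at 0.54. With 3 libraries per group an exact test cannot go below 0.1, and counts of 10 or fewer, as in the Bardet-Biedl genes and Ppp2r2a, limit those fold changes.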
